A study of Homo sapiens with 3 samples.

Results

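The hepatocyte identity transcription factors HNF4A, FOXA1, FOXA2, FOXA3, CEBPA, CEBPB, ONECUT1 and PROX1 were examined in HepG2, a widely used cell line from a human liver tumour. Members were taken by name, using every probe set that carried their symbol alone. Of the 8 listed factors, 7 had such a probe set, 1 each, among 18417 genes in all; HNF4A is not analysed here. The series held 3 Affymetrix arrays, 1 each for graphene oxide (GO), for its reduced form (rGO), which carries fewer oxygen groups, and for untreated control cells. Each exposure lasted 24 h at the material's own EC20, the dose linked to a 20% effect in viability assays. Concentrations are not in the labels, and the 2 materials may have been given at unequal doses. All 3 arrays came from the same line grown in MEM medium, and a tumour line is a limited model of the hepatocyte.

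Hepatocyte identity is held by a small set of transcription factors that bind each other's promoters and those of the liver's secreted and metabolic proteins. The FOXA proteins are pioneer factors that open compacted chromatin, and HNF4A is a nuclear receptor that then occupies many liver enhancers. CEBPA and CEBPB are basic leucine zipper proteins of the C/EBP family: CEBPA is tied to quiescence, metabolism and liver maturation, CEBPB to the acute phase and regeneration. ONECUT1, also called HNF6, and PROX1 guide the specification and growth of liver progenitors, and PROX1 also acts as a corepressor.

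Start-site sequences were looked at for the factors with an entry in RefSeq's table (GRCh38.p14), which covered 6 of the 8 factors with 8 windows. CEBPA and FOXA3 are shown because both lie on chromosome 19 and hold the same core promoter element while their GO values differed, and CEBPG because it is a close neighbour of CEBPA whose value lay close to that of CEBPA. Each run is the 250 bases before a start site, 5′ to 3′ on the gene's strand, with matches to the searched elements other than the GC box in capitals. CEBPA is read from chr19:33302535-33302784 on the minus strand, CEBPG from chr19:33373459-33373708 on the plus strand and FOXA3 from chr19:45864076-45864325 on the plus strand.
CEBPA: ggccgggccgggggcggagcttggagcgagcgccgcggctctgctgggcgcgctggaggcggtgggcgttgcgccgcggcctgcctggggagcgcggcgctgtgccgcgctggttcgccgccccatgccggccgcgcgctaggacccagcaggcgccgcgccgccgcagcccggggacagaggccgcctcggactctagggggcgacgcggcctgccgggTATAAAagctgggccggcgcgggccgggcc
CEBPG: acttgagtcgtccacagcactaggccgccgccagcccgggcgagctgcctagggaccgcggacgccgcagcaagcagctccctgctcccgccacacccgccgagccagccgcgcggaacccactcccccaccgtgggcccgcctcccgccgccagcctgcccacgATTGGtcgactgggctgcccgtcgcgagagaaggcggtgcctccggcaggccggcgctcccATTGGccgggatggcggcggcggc
FOXA3: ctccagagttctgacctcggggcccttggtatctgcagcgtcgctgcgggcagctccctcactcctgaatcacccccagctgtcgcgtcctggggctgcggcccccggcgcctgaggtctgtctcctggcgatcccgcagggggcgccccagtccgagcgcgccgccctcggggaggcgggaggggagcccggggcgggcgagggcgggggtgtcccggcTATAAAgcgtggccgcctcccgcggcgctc
The motifs searched on both strands were the core promoter element TATAAA, the GC box GGGCGG, the CCAAT motif, the E-box CACGTG, a motif like a cyclic AMP response element (TGACGCA), one like a FOXA site (TGTTTAC), one like a ONECUT site (ATTGAT) and one like a C/EBP site (TTGCGCAA). Matches in these windows did not overlap each other.

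The capitals in CEBPA and FOXA3 mark TATAAA at -30 to -25 from the start in each. A second CEBPB window, at a later start site, held it at -29 to -24 together with TGACGCA at -57 to -51. TATAAA occurred in 10.7% of 35116 windows of this length and TGACGCA in 2.09%. The capitals in CEBPG mark CCAAT on the opposite strand, at -85 to -81 and -24 to -20, and 11240 of the 35116 windows hold that motif. A second CEBPG window, at a later start site and not shown, held no CCAAT match. Its only match was a GC box at -65 to -60. Both HNF4A windows held ATTGAT, at -33 to -28 and -200 to -195, against 5.58% of all windows. The GC box, in 42.6% of windows, was present in all 8 windows of the listed factors. The GC content was 58.4% and 58.0% at HNF4A, 67.2% at FOXA1, 75.2% at FOXA3, 76.8% at ONECUT1, 75.6% and 77.6% at CEBPB and 81.2% at CEBPA, against a median of 58.0% over all windows. A match describes the letters in a window and says nothing of binding.

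Each group was 1 array, so every value below is a difference of deposited log2 values between 2 arrays, without an error and without a test. None of the differences can be told from variation between dishes of cells, since precision is limited by the number of arrays. The arrays had medians of 6.63 (GO), 6.66 (rGO) and 6.65 (control) over 33297 probe sets. A level filter at the 40th percentile of gene means (log2 6.66) kept 11050 genes as the background, and all 7 factors passed it. The labelled cell type was checked with hepatocyte markers, of which 11 of 12 lay at or above the level in each array. Of 18 measured markers of other cell types, 7 did in the GO array, 6 in the rGO array and 7 in the control. The leukocyte gene PTPRC stood at 3.56, 3.76 and 3.65 in the GO, rGO and control arrays, near the low end of the scale. LYZ, a lysozyme gene listed with the leukocyte markers, stood at 13.4 with GO, 13.4 with rGO and 13.2 in the control.

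After GO, CEBPA was the factor farthest from the control, at 1.47-fold lower, while FOXA2 and PROX1 were 1.28-fold and 1.23-fold higher. FOXA1, FOXA3, CEBPB and ONECUT1 lay within 0.09 log2 units of the control. After rGO, all 7 lay within 0.18 log2 units, with FOXA3 and CEBPA both 1.13-fold lower. None of the 7 reached 2-fold in either exposure, where 1.17% of all genes past the level filter did so after GO and 0.0181% after rGO. None reached 1.5-fold either, against 6.14% of genes after GO and 0.154% after rGO.

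**Figure D1:**
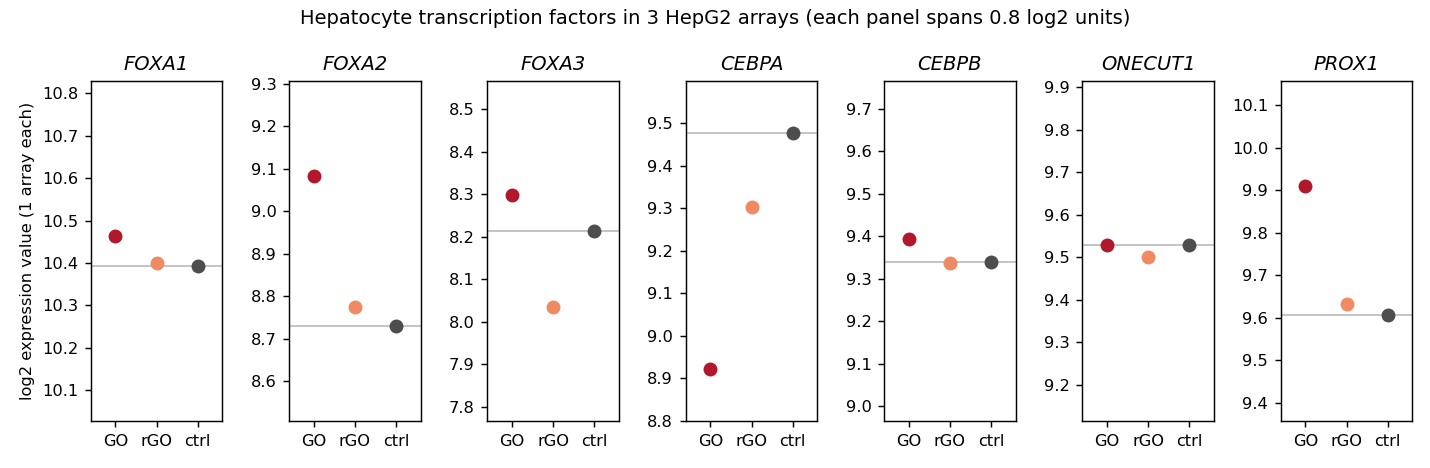
Log2 expression value (y axis) of the 7 measured factors, 1 panel per gene, with 1 point each for the GO, rGO and control arrays and a grey line at the control. The panels span equal heights, so distances can be read across them; CEBPA at 8.92 with GO lies farthest below its control value of 9.48, and FOXA2 and PROX1 lie above theirs.

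Among the pioneer factors, FOXA2, which acts in the early endoderm and in glucose and bile acid metabolism of the liver, stood at 9.08 with GO and 8.77 with rGO, against 8.73 in the control. The GO array was the high one, and the other two lay close together. The difference from control was 0.35 with GO and 0.05 with rGO. FOXA1, its close paralogue, stood at 10.46 with GO and 10.40 with rGO, against 10.39 in the control, so its GO difference was 0.07 and its rGO difference 0.0074. FOXA3, the family member most abundant in the adult liver of mice, stood at 8.30 with GO and 8.04 with rGO, against 8.21 in the control. Here the rGO array was the low one, at -0.18 from control, while GO stood at 0.08. Whether a probe set of one also reads another member of this family was not checked.

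CEBPA, which drives gluconeogenic and secretory genes and restrains hepatocyte division, stood at 8.92 with GO and 9.30 with rGO, against 9.48 in the control. The GO array was the lowest and the rGO array lay between it and the control. The differences from control were -0.55 with GO and -0.17 with rGO. CEBPB, a factor of the inflammatory and regenerative response, stood at 9.39 with GO and 9.34 with rGO, against 9.34 in the control. Its GO difference of 0.05 and its rGO difference of -0.0013 left the 3 arrays almost level. Of the 2 C/EBP factors on the list, only CEBPA lay away from the control by more than 0.1 log2 units.

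ONECUT1 stood at 9.53 with GO and 9.50 with rGO, against 9.53 in the control. With a span of 0.03 log2 units it varied least of the 7 factors over the 3 arrays, at -0.0012 with GO and -0.03 with rGO. PROX1 stood at 9.91 with GO and 9.63 with rGO, against 9.61 in the control. As for FOXA2, the GO array was high and the other two close together, with differences of 0.30 for GO and 0.03 for rGO.

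Set beside all genes, the GO difference of CEBPA lay at -2.27 robust SDs (1 SD being 0.244, the scaled median absolute deviation over all genes), and 4.89% of the 11050 genes were at least as far below. FOXA2 lay at 1.45 robust SDs above 0, with 7.77% of genes at least as high, and PROX1 at 1.24, with 10.8%. In the rGO comparison the robust SD was 0.116. FOXA3 and CEBPA were the farthest below 0 among the factors, where 995 and 1050 of the 11050 genes were at least as far below. These shares place a factor among the genes of 2 arrays and are not p-values. The median of the 7 factors was 0.07 after GO, with 5 above 0 and 2 below, against 0.0061 over all genes, of which 51.1% lay above 0. After rGO it was -0.0013, with 3 above and 4 below, against -0.0084 over all genes, of which 46.8% lay above 0.

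**Figure D2:**
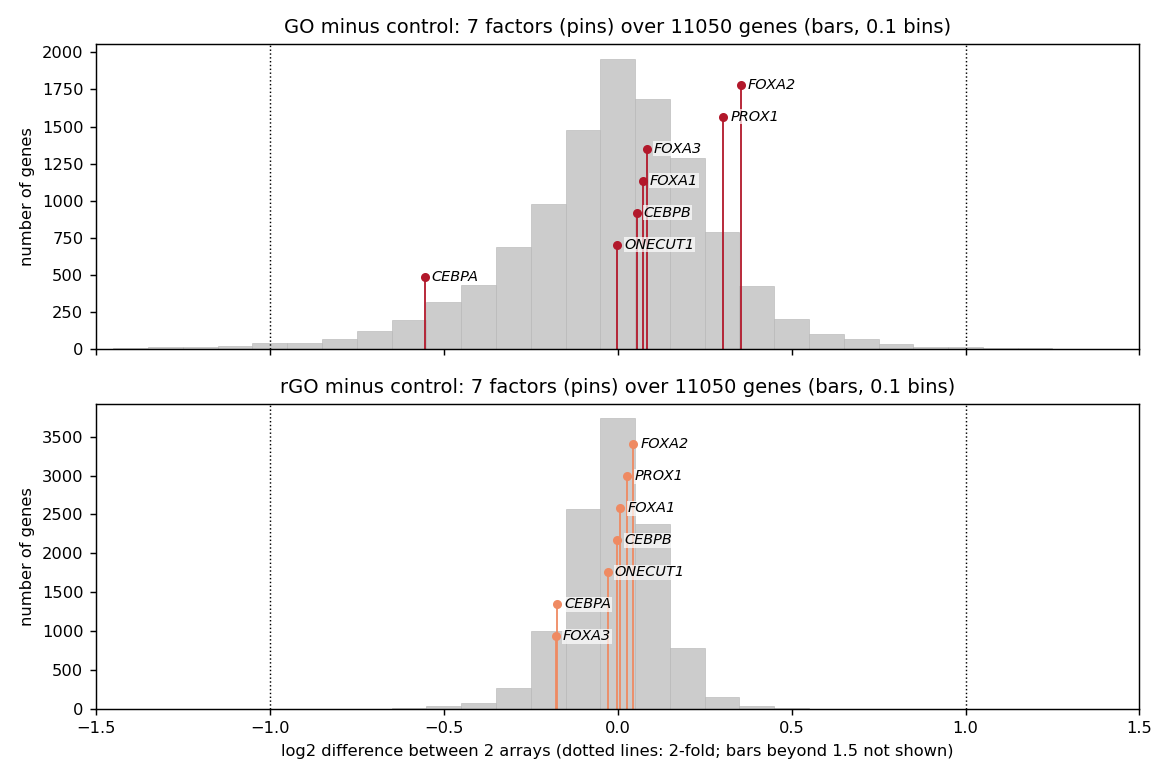
Number of genes (y axis) by log2 difference from control (x axis, bins of 0.1) for GO above and rGO below, with a labelled pin for each of the 7 factors whose height carries no value. After GO, CEBPA sits in the lower tail and FOXA2 and PROX1 on the upper shoulder. After rGO all 7 lie between -0.18 and 0.05, with FOXA3 and CEBPA on the lower shoulder of a narrower distribution.

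The GO and rGO arrays were also set against each other. CEBPA was 1.30-fold lower with GO than with rGO (-0.38), and FOXA2, PROX1 and FOXA3 were 1.24-fold, 1.21-fold and 1.20-fold higher (0.31, 0.28 and 0.26). FOXA1, CEBPB and ONECUT1 stood at 0.06, 0.06 and 0.03. Of the 7, 6 were above 0, against 52.9% of all genes, and their median was 0.06 against 0.01 over all genes. Of the factors, 0 reached 2-fold, as 0.796% of all genes did, or 1.5-fold, as 5.02% did. All of these comparisons share arrays pairwise, so they are not independent of each other.

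Family relatives were set beside the factors to show how far paralogues differed. CEBPD, a C/EBP member induced in the acute phase response, stood at 9.11 with GO and 8.65 with rGO, against 8.45 in the control. It was thus 1.58-fold higher after GO (0.66), on the other side of the control from CEBPA. CEBPG, a partner of ATF4 that lacks an activation domain of its own, stood at 8.52 with GO and 8.84 with rGO, against 9.04 in the control, and was lower by log2 differences of -0.53 and -0.21. DDIT3, the stress-induced dimer partner known as CHOP, stood at -0.23 after GO and 0.04 after rGO. CEBPE, a factor of granulocytes, lay below the filter level. CEBPZ shares the name but is a nucleolar protein of another fold, and stood at -0.68 and -0.11.

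ONECUT2, the paralogue of ONECUT1, was 0.36 above the control after GO and 0.05 after rGO, where ONECUT1 was level. HNF4G, the paralogue of HNF4A, stood at 8.07 with GO and 8.32 with rGO, against 8.39 in the control. PROX2 stood at 0.35 and 0.10 at a level under the filter. Among other forkhead genes after GO, FOXM1, a driver of mitotic genes, stood at 0.29, FOXP1 at 0.28, FOXO1, an effector of insulin signalling, at 0.05, FOXO3 at -0.04 and FOXQ1 at -0.14. After rGO these stood at 0.23, 0.14, -0.07, -0.29 and 0.10. Of the 11 relatives past the filter, 1 reached 1.5-fold on the higher side after GO (CEBPD) and 1 on the lower (CEBPZ), against 1.91% and 4.23% of all genes. After rGO 0 did in either direction, against 0.0271% and 0.127%.

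CEBPA and CEBPG lie near each other on chromosome 19, and the neighbours of each factor in RefSeq gene order were therefore read as well, a choice made after the values had been seen. The divergent noncoding transcript CEBPA-DT lies between them, and its probe set stood at 6.51 with GO and 6.52 with rGO, against 6.53 in the control. That is under the filter level, where background can hide a difference. On the other side of CEBPA, the amino acid transporter SLC7A10 stood at -0.30 after GO and -0.11 after rGO, and LRP3, a receptor of the LDL receptor family, at -0.15 and -0.14. Next to PROX1, the lysine methyltransferase SMYD2 stood at -0.60 after GO and -0.29 after rGO. PTPN14, a phosphatase that restrains YAP, lies beyond SMYD2 and stood at 0.37 and -0.04. On the other side of PROX1, RPS6KC1 stood at -0.10 after GO and ANGEL2 at 0.15. Next to FOXA1, MIPOL1 stood at -0.53 after GO and -0.05 after rGO, and TTC6 at -0.43 and 0.34, where FOXA1 itself stood at 0.07 and 0.0074. The 4 nearest measured genes around FOXA2 (PAX1, LOC284788, SSTR4 and THBD) were all under the filter level. Around FOXA3, CEBPB and ONECUT1, the neighbours past the filter lay between -0.22 (LINC01270) and 0.30 (UBE2V1) after GO.

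The genes whose 2 differences from control lay nearest to those of CEBPA were COG6, of the Golgi tethering complex (-0.56 and -0.16 for GO and rGO), ASNSD1 (-0.55 and -0.19) and MTRR, the methionine synthase reductase (-0.57 and -0.17). Their distances from CEBPA in the plane of both differences were 0.01 log2 units each, and 60 genes lay within 0.05. With only 2 differences per gene, which share the control, such likeness is a description.

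Other liver transcription factors were read as a group of 23 past the filter. After GO, 14 lay above 0 and 9 below, with a median of 0.04, where 51.1% of all genes lay above 0. None reached 1.5-fold in either direction, against 6.14% of all genes, so a count of 0 among 23 is near that background. TCF7L2, the nuclear effector of Wnt signals, stood at 9.37 with GO, against 8.79 in the control, and was the member farthest above it (0.57, and 0.20 after rGO). MLXIPL, the carbohydrate response factor ChREBP, was the one farthest below at 9.49 with GO, while it stood at 10.27 with rGO, against 9.97 in the control. KLF15, a fasting-induced regulator of amino acid breakdown, stood at -0.43 after GO, and NFIL3, a repressor of the clock output, at -0.37. After rGO the median was -0.02, with 9 above and 14 below, where 46.8% of all genes lay above 0. Of the 23, 0 reached 1.5-fold, against 0.154% of all genes, a count near that background.

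Of 13 coactivators, corepressors and chromatin enzymes that work with these factors, 9 lay above 0 after GO, against 51.1% of all genes. The median of the 13 was 0.23, with a range of -0.16 to 0.45. CITED2, which binds the coactivators CBP and p300, stood at 10.02 with GO and 9.55 with rGO, against 9.57 in the control. GATAD2A, a subunit of the NuRD corepressor, stood at 0.44 after GO, the corepressor TLE1 at 0.36 and the nuclear receptor coactivator NCOA2 at 0.32. After rGO the median was 0.04, with TLE1 and NCOA2 at 0.19 each. None of the 13 reached 1.5-fold in either exposure, against 6.14% of all genes after GO and 0.154% after rGO, a count near that background.

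Genes known to be bound or driven by the factors were listed by regulator, and many have several regulators, so the lists overlap. The lists were drawn up with results of these data known and give no independent evidence of a direction. HNF4A targets had a median of 0.12 after GO, with 11 of 15 above 0, against 51.1% of all genes. Of the 15, 2 were at least 1.5-fold higher, against 1.91% of all genes: APOM, of high-density lipoprotein (0.87), and TTR, the thyroxine carrier transthyretin (0.70). The lipid transfer protein MTTP stood at -0.46 and the glucose-6-phosphatase gene G6PC1 at 0.44. After rGO the median was 0.05, with 11 of 15 above 0, against 46.8% of all genes. APOM then stood at 0.30 and G6PC1 at -0.36.

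FOXA targets had a median of 0.11 after GO, with 8 of 14 above 0, against 51.1% of all genes. Of the 14, 2 were at least 2-fold higher, against 0.253% of all genes. These were IGFBP1, which binds insulin-like growth factors outside the cell, at 12.27 with GO and 10.55 with rGO, against 10.28 in the control, and AGR2, a disulphide isomerase, at 7.66 and 6.45, against 6.23 in the control. The AGR2 values with rGO and in the control lay under the filter level, so its difference of 1.44 can be understated. With 1 array per group it can also be overstated, and neither was tested. AGR2 passed the level filter only through the GO array, so its place in the count of 2 follows from its high GO value; without it 1 of 13 targets was at least 2-fold higher and the median was 0.04. The median was likewise 0.04 over all 15 measured targets. After rGO the median was 0.08, with 10 of 14 above 0, against 46.8% of all genes. Of the 14, 0 reached 1.5-fold, against 0.154% of all genes, a count near that background.

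C/EBP targets had a median of -0.06 after GO, with 7 of 20 above 0 and 13 below, where 51.1% of all genes lay above 0. Over all 26 measured targets, with no level filter, the median was -0.01. Of the 20, 4 were at least 1.5-fold lower, against 4.23% of all genes: HAMP, which encodes hepcidin (-2.71), the fibrinogen chains FGB (-0.85) and FGG (-0.63), and haptoglobin HP (-0.63). On the higher side, CEBPD (0.66) was the only member at 1.5-fold, against 1.91% of all genes. The kinase-like TRIB1, which promotes the breakdown of the CEBPA protein, stood at 0.58, just short of it. HAMP was the only target at least 2-fold lower, against 0.914% of all genes. Fibrinogen FGA, in one cluster with FGB and FGG, stood at 0.05, and ALB, which encodes albumin, at -0.01. After rGO the median was -0.00038, with 10 above and 10 below 0, where 46.8% of all genes lay above 0. The sign of that median turned with loess and with the level filter. HAMP stood at -0.40 and HP at -0.26. Of the 20, 0 reached 1.5-fold, against 0.154% of all genes, a count near that background.

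ONECUT1 and PROX1 targets had a median of 0.04 after GO, with 5 of 10 above 0, against 51.1% of all genes. The sign of the median depended on the level filter: -0.0079 at the 60th percentile and 0.08 with none. Of the 10, 1 was at least 1.5-fold higher (TTR, 0.70), against 1.91% of all genes. CCNE2, a cyclin of the S phase, stood at -0.52, and FOXA2, which is a target of ONECUT1 in mice, at the 0.35 given above. After rGO the median was -0.01, with 3 of 10 above 0, against 46.8% of all genes, and the phosphofructokinase regulator PFKFB1 at 0.24. PFKFB1 lay near the filter level of 6.66, at 6.66 with GO and 6.83 with rGO, against 6.585 in the control. It thus passed the filter mainly through the rGO array, the one in which it was high. Fetal and progenitor genes had a median of 0.0030 after GO, or -0.02 over all 18 measured. Past the filter 6 of 12 lay above 0, against 51.1% of all genes, and 2 were at least 1.5-fold higher, against 1.91%. These were the stem cell marker PROM1 (0.87) and the biliary keratin KRT19 (0.79), while the adhesion molecule EPCAM stood at -0.34 and SOX9, a factor of biliary cells, at 0.29. AFP, the fetal albumin homologue, stood at -0.27 after GO and 0.10 after rGO. After rGO the list's median was 0.0027, or -0.03 over all 18 measured, with SOX4 at -0.23 and osteopontin SPP1 at -0.20.

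**Figure D3:**
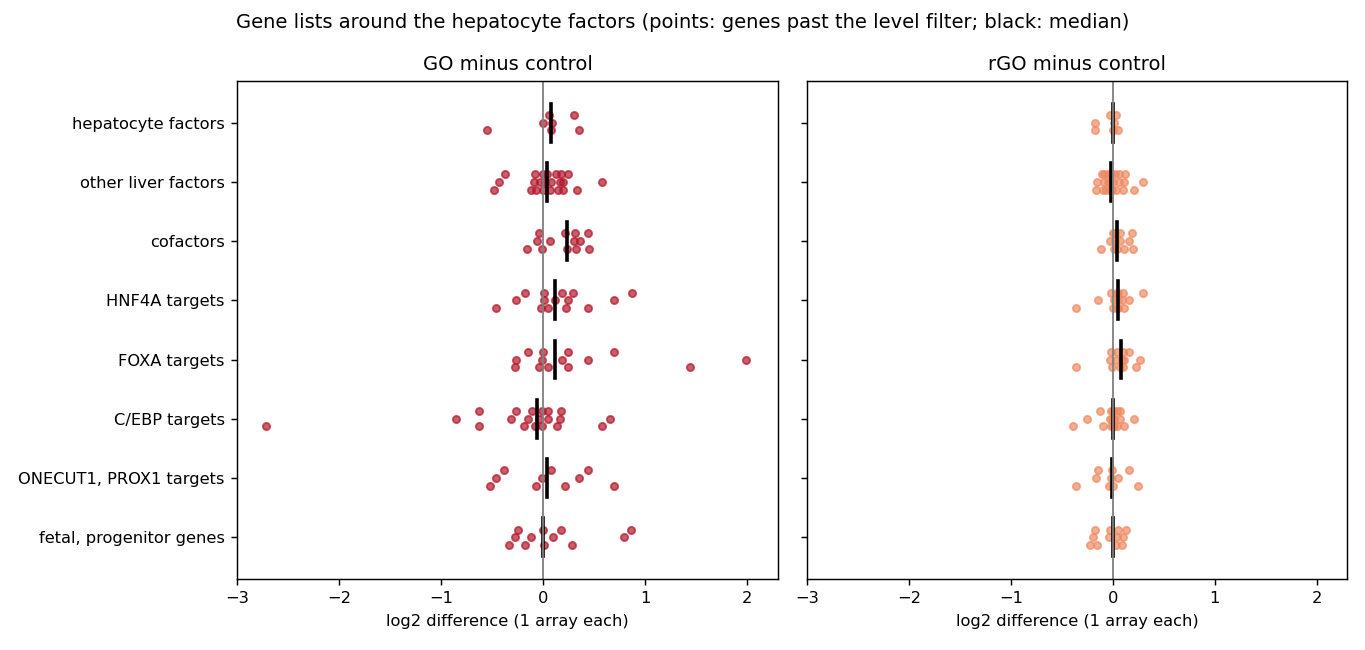
Log2 difference from control (x axis) for the genes past the level filter of 8 lists (y axis), with GO left and rGO right; each point is a gene and the black bar is the list's median. After GO the points spread from HAMP at -2.71 to IGFBP1 at 1.99 while the medians stay between -0.06 and 0.23; after rGO all points lie between -0.40 and 0.30.

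Hepatocyte markers past the filter had a median difference of 0.14 after GO, with 8 of 11 above 0, against 51.1% of all genes. After rGO it was 0.06, with 8 of 11 above 0, against 46.8%. Over all 12 measured the medians were 0.09 and 0.05, with 8 above 0 and 4 below in each exposure. Farthest below after GO were CYP3A4, under the filter level (-0.99, and -0.38 after rGO), and FGB (-0.85, and -0.10 after rGO). Markers of other cell types had a median of -0.0091 over all 18 measured after GO, against -0.0059 over all 18417 genes. Of the 18, 8 lay above 0 and 10 below, from -0.44 (KDR) to 0.38 (CD68), where 51.1% of genes past the filter lay above 0. After rGO their median was -0.05, against -0.016 over all 18417 genes. Again 8 lay above 0 and 10 below, from -0.40 (PDGFRB) to 0.24 (PECAM1), where 46.8% of genes past the filter lay above 0. Over the 7 past the filter the medians were 0.14 after GO and -0.09 after rGO. Their summed log2 level was 119.8 with GO and 119.5 with rGO, against 120.2 in the control. Their part in the factors' values was not tested. In bulk RNA, fewer cells of a kind and less RNA per cell cannot be told apart.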

How the data were processed

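The deposited values are log2 expression values per probe set from biotin-labelled cDNA on Affymetrix arrays, 1 array per group. RMA and MAS5 appear in the submitters' processing notes with no role or version; the authors' build is not given in the sources used here. Distributions were near equal, so the arrays look scaled to each other; any further scaling is unknown. Probe sets were named through the platform's annotation, which can be old: 19460 had 1 symbol and were used, 1754 had several and 12083 had none listed. A gene with several probe sets (769 genes) was represented by the one with the highest mean. Differences were taken between arrays; no test was possible. The factors, lists and tests were chosen with earlier results of these data known. Named were all factors, relatives and the nearest neighbours, and of each list the 4 largest GO and 2 largest rGO differences. Not all are printed, and others (FGG, FGA, ALB, AFP, TRIB1, CYP3A4, KDR, PECAM1, PTPRC and flanking genes) were picked after their values were seen. The procedure was tested on simulated data. Alternatives were quantile normalization, median centring, loess (span 0.3), averaged probe sets, no filter or a 60th percentile filter, 1.5-fold and 3-fold sizes, and means for medians. Python 3.11.15, numpy 2.4.6, pandas 2.3.3, statsmodels 0.14.6 and matplotlib 3.10.9 were used.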

Additional observations from a re-analysis of the deposited data

How the results depend on the processing

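The 7 factors kept their GO values closely under the other normalizations: CEBPA ranged from -0.57 to -0.53, FOXA2 from 0.34 to 0.38 and PROX1 from 0.29 to 0.33. The sign was not stable for values near 0, which were ONECUT1 after GO (-0.02 to 0.04) and, after rGO, CEBPB (-0.02 to 0.0087) and FOXA1 (-0.0065 to 0.02). None of the factors reached 1.5-fold or 3-fold in any comparison. Their median ranged from 0.06 to 0.10 after GO, from -0.02 to 0.0087 after rGO and from 0.05 to 0.10 for GO minus rGO. Their mean, taken in place of the median, was 0.04 after GO and -0.04 after rGO. Each factor had 1 probe set and passed both filters, so only the 3 normalizations act on its value, and they moved none of the 63 factor values by more than 0.04. The other settings cannot change these values and say nothing of their stability. Medians of the gene lists did depend on the level filter, which changes their make-up. With no filter after GO, FOXA targets stood at 0.04 and C/EBP targets at -0.01. The ONECUT1 and PROX1 targets turned to -0.0079 at the 60th percentile after GO, and to 0.0022 with loess after rGO. The C/EBP targets after rGO turned from -0.00038 to 0.015 with loess. They stood at 0.0017 with no filter and with the 60th percentile filter. For fetal genes the sign turned under normalizations as well as filters. After GO their median was -0.02 with no filter, -0.00027 at the 60th percentile and -0.0034 with loess. After rGO it was -0.03 with no filter, -0.0077 with quantile normalization and -0.01 with median centring. Shifts beyond the robust SD between probe sets of a gene (0.0880 for GO minus control, 0.0615 for rGO minus control and 0.0794 for GO minus rGO, from 366 pairs) were seen in 4 medians. With a 60th percentile filter the family relatives turned from -0.043 to 0.054 after GO, and markers of other cell types from -0.095 to 0.027 after rGO. With no filter those markers went from 0.135 to -0.0091 for GO minus control and from 0.102 to 0.0091 for GO minus rGO. That SD is of single probe sets and is a loose yardstick for a list's median. By it the FOXA targets after GO, at 0.114 and then 0.045 with no filter, did not count as shifted. No paired analysis was possible because each group held 1 array, and no array could be left out.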
